A study of Rattus with 52 samples.

Results

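The voltage-gated sodium channel genes described here were 8 of the 20624 genes in the expression table, 5 coding for pore-forming alpha subunits (Scn1a, Scn3a, Scn4a, Scn7a and Scn8a) and 3 for beta subunits (Scn2b, Scn3b and Scn4b). They were selected by gene name, and Scn8a was chosen by its measured fall with peritoneal dialysis (PD) in the Sham kidney, a difference already known from these libraries. The table names 13 genes of this family, and the other 5 were not analysed here. RNA of the left ventricle (LV) and of the kidney of male Sprague Dawley rats was sequenced in 52 libraries, 26 for each tissue. The rats had Sham surgery or removal of most of the renal mass (5/6Nx) at 10 weeks of age, and the tissues were taken 7 weeks after surgery. All rats of all groups later received an abdominal dialysis catheter and lost their omentum. PD rats then had 3 exchanges of a dextrose dialysate a day for 8 days, while Control rats carried the catheter and received no dialysate. The 8 groups were Sham Control, Sham PD, 5/6Nx Control and 5/6Nx PD in each tissue, with 6 libraries in a Sham group and 7 in a 5/6Nx group. The kidney of a 5/6Nx rat is a remnant, and no label states which LV and kidney libraries came from the same rat, so the tissues were compared as independent groups.

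Voltage-gated sodium channels open when the membrane depolarises and carry the inward current that starts the action potential in neurons, skeletal muscle and heart muscle. The alpha subunit forms the pore, and beta subunits are single-span membrane proteins that alter its gating and its place in the membrane. In the ventricle these channels drive the upstroke and the spread of the impulse, whereas sodium uptake in the renal tubule is carried mostly by transporters and by the epithelial sodium channel.

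The libraries held 16.7 M to 111.8 M reads in the gene table, the fewest in Kidney Sham PD replicate 4. Tissue markers followed the labels in all libraries. The cardiac myosin gene Myh6 had 540880 to 1374120 normalized reads in the LV and at most 187 in the kidney, and the renal gene Umod had 89078 to 477339 in the kidney and at most 122 in the LV. Levels below are normalized reads, that is reads divided by the size factor of the library, recovered from the deposited log2 values. They are not scaled by transcript length, so levels are compared between groups and not between genes. Changes and their standard errors (SE) are on the deposited log2 scale, which is compressed at low levels (0, 10, 100 and 1000 normalized reads stand at 5.919, 6.50, 7.67 and 10.13). A gene passed the test at an adjusted p under 0.05 in limma over all genes tested.

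The LV held nearly all of the Scn4b and Scn7a reads, and the kidney nearly all of the Scn8a reads. Scn4b, a beta subunit joined to the alpha subunit by a disulphide bond, ran from 3614 to 12141 normalized reads over the 26 LV libraries and from 0 to 92.2 over the 26 kidney libraries. Scn7a, an atypical alpha subunit known as a sensor of extracellular sodium, ran from 126 to 3980 in the LV and from 0 to 77.5 in the kidney. Scn8a, the main alpha subunit at the axon initial segment and the node of Ranvier, ran from 53.6 to 1668 in the kidney and from 0 to 31.7 in the LV, where it was listed at 0 in 12 of 26 libraries. Tissue ranges of these 3 genes did not overlap. A difference between kidney and LV was common, as 71.5% of all genes passed in 5/6Nx Control rats and 78.6% in Sham Control rats.

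The other alpha subunits were found in both tissues. Scn1a, an alpha subunit of inhibitory neurons, ran from 141 to 772 in the LV and from 12.4 to 50.7 in the kidney, without overlap. Scn3a, known from the developing brain, overlapped between LV (45.2 to 365) and kidney (69.3 to 217). Scn4a, the alpha subunit of skeletal muscle, lay low in both, at 18.4 to 135 in the LV and 0 to 48.8 in the kidney. Among beta subunits, Scn3b ran from 75.7 to 692 in the LV and from 8.02 to 73.9 in the kidney, without overlap. Scn2b was the sparsest, with at most 31 reads in any library, and was listed at 0 in 12 LV and 17 kidney libraries.

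**Figure D1:**
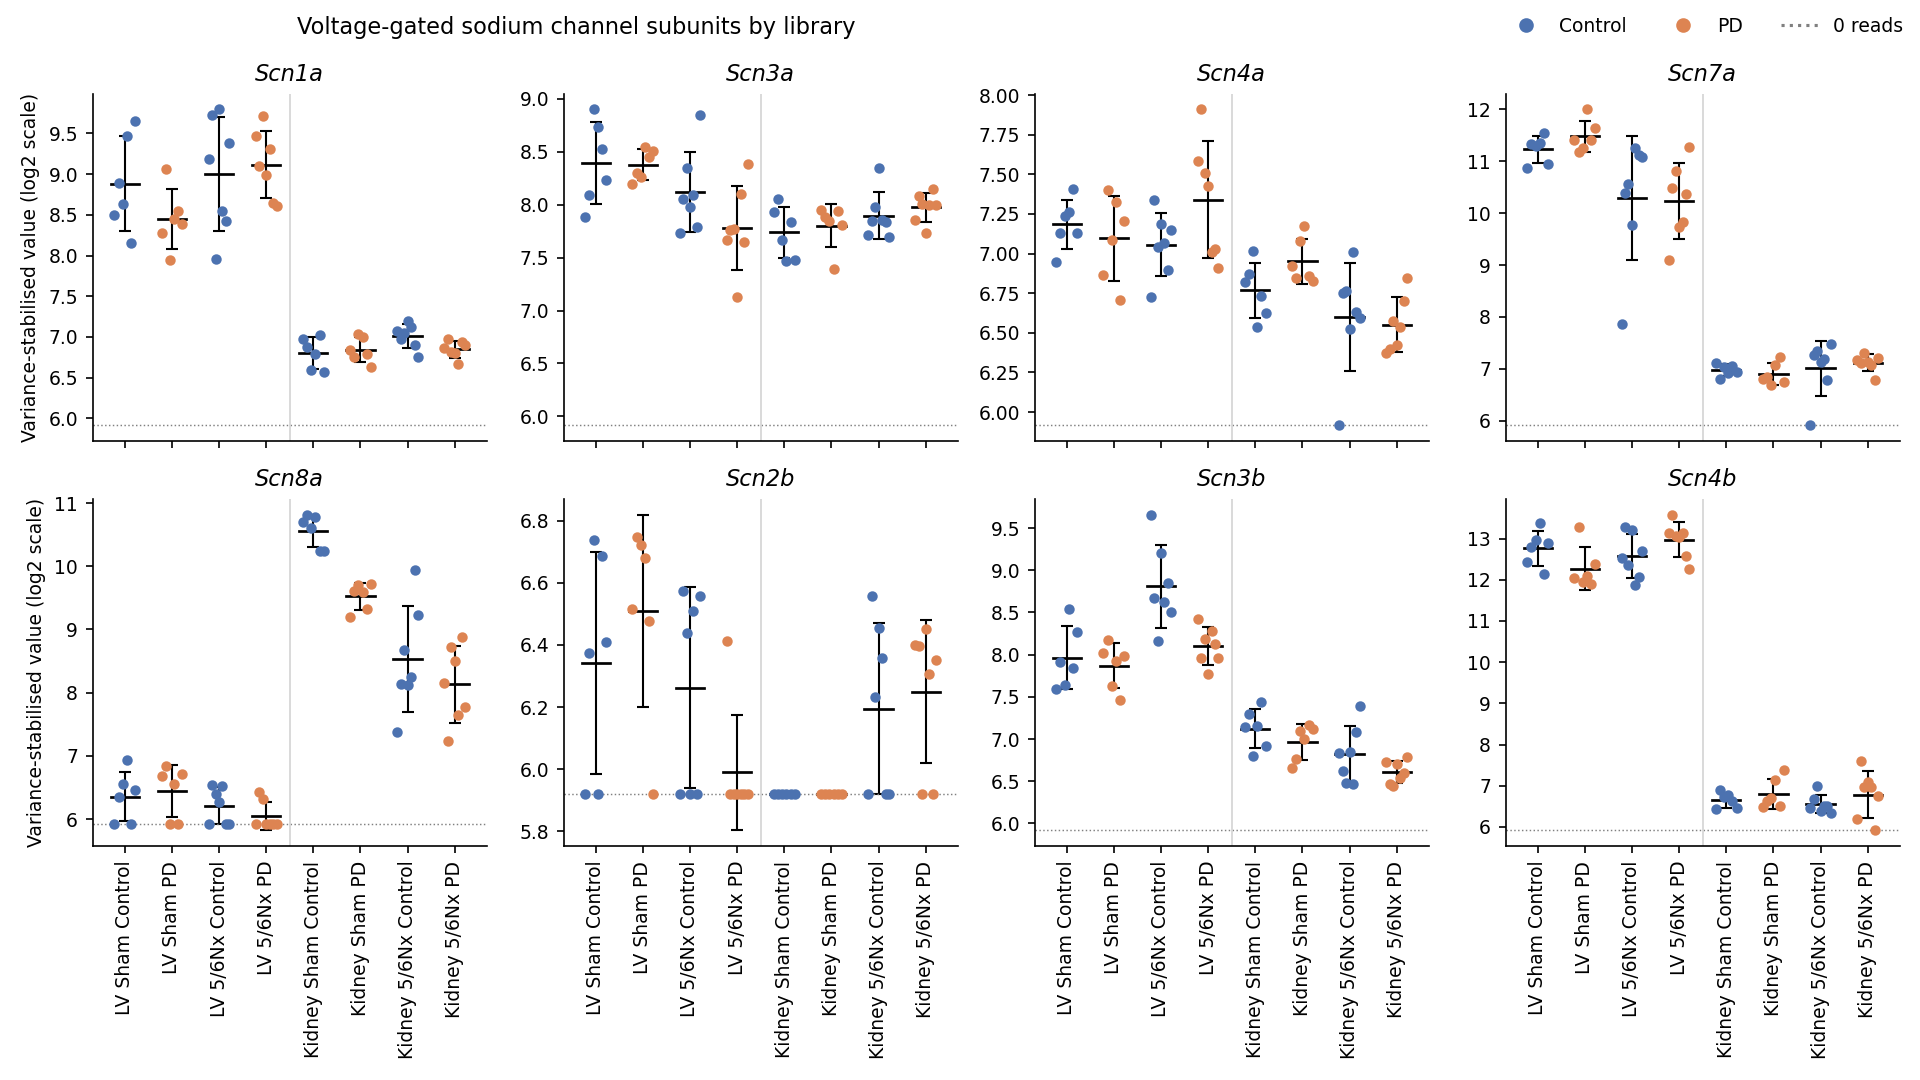
Deposited log2-scale value of the 8 genes (vertical axis, one panel per gene with its own range) in every library of the 8 groups (horizontal axis), with the group mean and SD as black lines. The dotted line is the value of 0 reads. Scn8a stands near that line in the LV and highest in Kidney Sham Control, Scn4b and Scn7a stand far higher in the LV than in the kidney, and Scn2b lies on the line in all 12 Sham kidney libraries.

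Between kidney and LV, 6 of 7 genes tested passed in 5/6Nx Control rats, against 71.5% of all genes. Higher in the kidney was 1 gene (39.0% of all genes) and lower were 5 (32.6%). Scn8a was higher in the kidney, at 321 ± 272 against 4.66 ± 5.08 (SD, n = 7 each), a log2 difference of 2.32 (SE 0.30, adjusted p = 3.17e-06). These means differ 69.0-fold, as the log2 scale is compressed at the LV values, where 3 of 7 libraries were listed at 0. The gene met the read minimum through its kidney libraries, and over the alternatives the log2 difference ran from 2.08 to 6.29. Scn4b was 482-fold lower in the kidney (log2 difference -6.02, SE 0.20, adjusted p = 1.29e-13). Scn7a was 31.6-fold lower, Scn3b 13.0-fold, Scn1a 12.2-fold and Scn4a 2.44-fold, with adjusted p between 2.42e-07 and 0.00889. Scn3a did not pass, at a log2 difference of -0.23 (95% interval -0.57 to 0.11, adjusted p = 0.217). In Sham Control rats all 6 genes tested were lower in the kidney, against 37.4% of all genes called lower and 78.6% called in either direction. There Scn4b was 421-fold and Scn7a 67.7-fold lower, and Scn3a passed (2.11-fold lower, adjusted p = 0.00222). Scn8a was left untested because its Kidney Sham Control values chose it, and its means were 1413 in the kidney and 9.61 in the LV. RNA of whole tissue cannot tell fewer cells of a type from less RNA per cell, here and throughout.

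In the kidney of Sham rats, Scn8a was lower in every PD library than in every Control library. The 6 Control libraries held 1540, 1668, 1445, 1633, 1094 and 1099 normalized reads, and the 6 PD libraries held 472, 664, 716, 659, 528 and 729. The highest PD library lay below the lowest Control library. Means were 1413 ± 257 (SD, n = 6) and 628 ± 104 (SD, n = 6), a log2 difference of -1.04. This contrast chose the gene, so the difference is a description without a test. Over all genes in this comparison 0.690% had a PD group wholly below the Control group, and 0.143% passed the threshold. Without the shallowest library, PD replicate 4, the PD range stayed at 472 to 729, with a mean of 622. With any 1 of the 12 libraries left out the log2 difference was between -1.10 and -0.97.

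In the remnant kidney Scn8a was lower still and far more uneven. The 7 Control libraries held 66.6, 173, 297, 171, 195, 860 and 487 normalized reads, and the 7 PD libraries held 177, 53.6, 312, 251, 97.9, 359 and 115. The groups overlapped, and Control replicates 6 and 7 were the only libraries above the PD range. The means were 321 ± 272 in Control and 195 ± 115 in PD (SD, n = 7 each), and the difference did not pass (log2 change -0.40, SE 0.35, 95% interval -1.15 to 0.35, adjusted p = 1). Without Control replicate 6 the log2 change was -0.17. The interval holds both no change and the difference seen in the Sham kidney.

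Set against Sham rats of the same treatment, every remnant kidney had less Scn8a. The 5/6Nx Control libraries (66.6 to 860) lay below all Sham Control libraries (1094 to 1668), a log2 difference of -2.03. The 5/6Nx PD libraries (53.6 to 359) lay below all Sham PD libraries (472 to 729), a log2 difference of -1.40. On the log2 scale of normalized reads plus 1, less compressed at low levels, these differences were -2.52 and -1.92. Both differences share Sham libraries with the contrast that chose the gene and are given without a test. The 5/6Nx group lay wholly below the Sham group for 13.4% and 8.12% of all genes in these comparisons. The order of the medians was Sham Control (1492), Sham PD (662), 5/6Nx Control (195) and 5/6Nx PD (177), and only the first step was free of overlap.

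Scn8a stood beside markers of the proximal tubule. The 8 proximal tubule markers summed to 433796 to 503507 normalized reads in Kidney Sham Control, 344644 to 516299 in Sham PD, 50491 to 283454 in 5/6Nx Control and 56666 to 212169 in 5/6Nx PD. In the Sham kidney the marker sums of Control and PD overlapped, with medians of 461740 and 418757. PD replicates 1, 2, 5 and 6 lay below the lowest Control sum, and the highest PD sum was that of replicate 4, the shallowest library. With PD 0 of 8 markers passed there, beside 0.143% of all genes. None had an unadjusted p under 0.05, which 17.3% of all genes had. Between 5/6Nx and Sham, 6 of 8 markers were lower in Control rats and 6 of 8 in PD rats. Beside this count and those that follow for surgery, 52.2% of all genes were called in Control rats and 40.1% in PD rats, in either direction. Several of the smaller counts below do not exceed these shares, though each count is of a single direction and the shares are of both. In PD rats 19.9% of all genes were called lower. Other nephron markers fell in part as well, with lower levels for 5 of 6 thick ascending limb genes in Control rats and 1 of 6 in PD rats, for 3 and 2 of 8 collecting duct genes and for 4 and 2 of 5 podocyte genes. Others went both ways. Of 5 distal convoluted and connecting tubule genes, 1 was higher and 2 lower in Control rats, and 1 higher and 1 lower in PD rats. Of 5 inner medulla genes, 1 was higher and 1 lower in Control rats, and 0 higher and 2 lower in PD rats. Macrophage markers were higher for 8 of 8 genes in both, fibroblast markers for 3 of 6 in Control and 4 of 6 in PD rats, and neutrophil markers for 2 and 4 of 6. In Sham PD kidneys the 6 neutrophil markers summed to 1148 to 2548 against 248 to 786 in Control, and the 8 macrophage markers to 5024 to 9993 against 2540 to 5735. The 8 measured markers of neurons and axons summed to 1962 to 2892 in Sham Control, 2161 to 2466 in Sham PD, 1560 to 3714 in 5/6Nx Control and 1334 to 2650 in 5/6Nx PD. Nefm, Uchl1, Nefh and Prph had reads in all 26 kidney libraries, while Tubb3 was listed at 0 in 4, Nefl in 12, Stmn2 in 15 and Dbh in 21. Between 5/6Nx and Sham, 3 of 5 tested neuronal markers were higher and 1 lower in Control rats, and 2 higher and 1 lower in PD rats, and 0 of 5 passed with PD in the Sham kidney. The part of these cell types in the Scn8a differences was not tested.

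**Figure D2:**
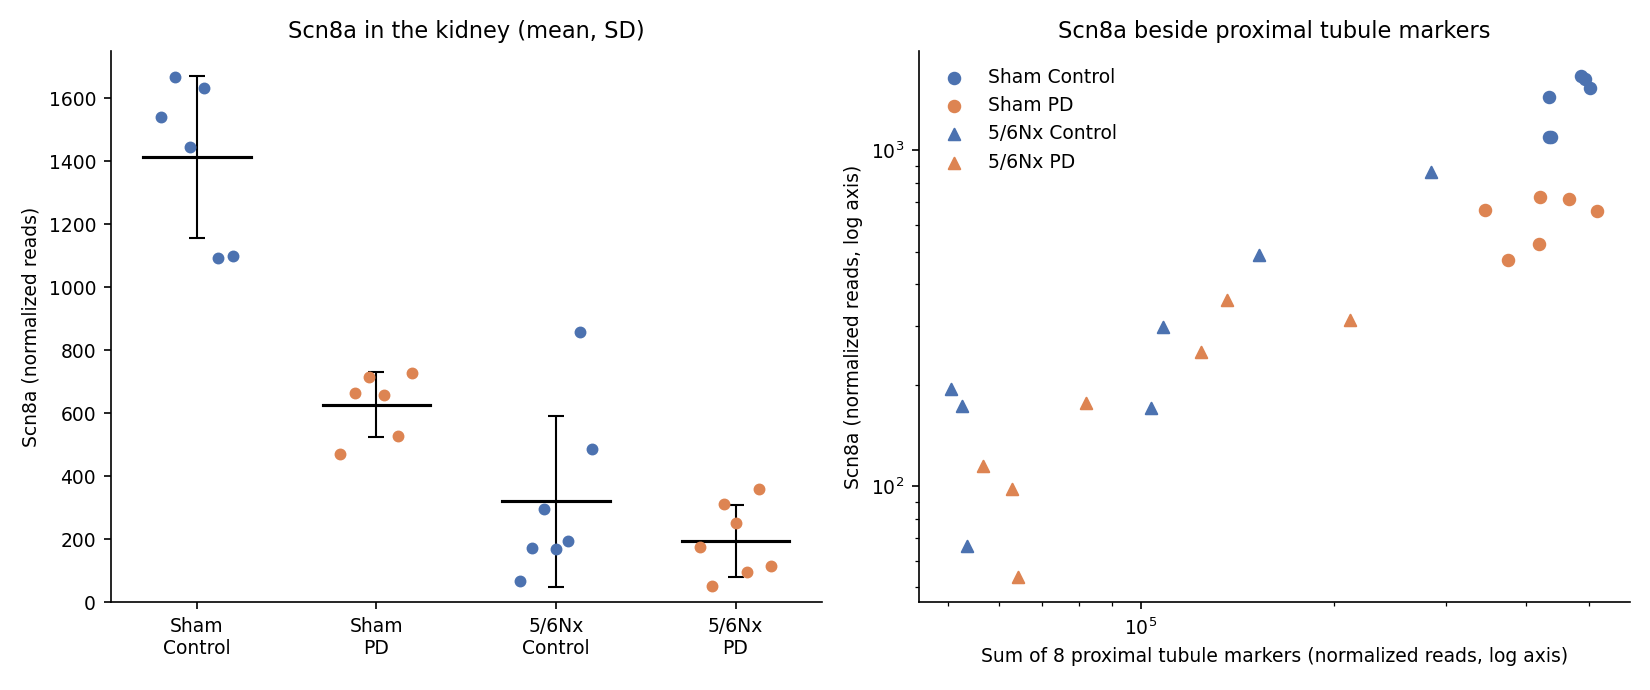
Left, Scn8a in normalized reads (vertical axis, from 0) in each kidney library of the 4 groups, with mean and SD. Right, Scn8a against the sum of 8 proximal tubule markers in the same 26 libraries, both in normalized reads on log axes. Sham PD libraries (472 to 729) lie below Sham Control libraries (1094 to 1668) in the contrast that chose the gene. The 5/6Nx libraries spread to low values of both Scn8a and the marker sum.

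The 3 genes whose log2 values followed Scn8a most closely over the 26 kidney libraries, with group means subtracted, were Slc22a2 (r = 0.95), Slc3a1 (r = 0.95) and Serpinf2 (r = 0.94). Slc22a2 is an organic cation transporter and Slc3a1 a subunit of the cystine transporter, both of the proximal tubule, and Serpinf2 codes for alpha-2-antiplasmin. The likeness was closer among the 14 5/6Nx libraries (r = 0.97 for each gene) than among the 12 Sham libraries, where r was 0.71, 0.69 and 0.51 in the same order. Without the 2 libraries farthest from the median it was 0.90, 0.90 and 0.89. Slc22a2 overlapped between Sham Control (42803 to 65118) and Sham PD (35991 to 59236). Slc3a1 did so too, at 223666 to 313611 and 185067 to 319526, and Serpinf2, at 16043 to 20550 and 12389 to 18422. Medians in Sham Control and Sham PD were 53599 and 46864 for Slc22a2, 291341 and 248062 for Slc3a1, and 16821 and 13575 for Serpinf2. Genes measured in the same library share its piece of tissue and its size factor, and r is given as a description only.

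The other genes are also given without a test between PD and Control in the Sham kidney. Only Scn8a, chosen by this contrast, had groups that did not overlap, beside 0.690% of all genes wholly lower in PD. On the compressed deposited scale the log2 differences were 0.18 for Scn4a, 0.16 for Scn4b, 0.06 for Scn3a, 0.04 for Scn1a, -0.07 for Scn7a and -0.16 for Scn3b. The folds of the mean normalized reads, PD over Control, were 1.47 for Scn4a, 1.64 for Scn4b, 1.07 for Scn3a, 1.08 for Scn1a, 0.891 for Scn7a and 0.742 for Scn3b. Over the settings that kept all libraries, the log2 differences ran from 0.18 to 0.59 for Scn4a, 0.15 to 0.45 for Scn4b, -0.24 to -0.07 for Scn7a and -0.57 to -0.16 for Scn3b. All 6 overlapped between the groups. Scn4a ran from 11.3 to 36.8 in Control and 24.9 to 48.8 in PD, and Scn3b from 23.3 to 73.9 and 15.9 to 48.0. Scn2b was listed at 0 in all 12 libraries.

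In the 5/6Nx kidney none of the 7 genes tested passed with PD, where 0.0121% of all genes did. None had an unadjusted p under 0.05, which 4.18% of all genes had, and limma-voom on the recovered reads called 0. Scn3b, a beta subunit held to the alpha subunit without a disulphide bond, had a median of 25.3 (8.88 to 68.2) in Control and 13.7 (8.02 to 22.6) in PD (log2 change -0.21, 95% interval -0.49 to 0.07). Scn4b had a mean of 13.1 (5.17 to 34.9) in Control and 31.9 (0 to 92.2) in PD (0.23, interval -0.21 to 0.68). Both pairs of groups overlapped. Scn1a stood at -0.16 (interval -0.33 to 0.01), and Scn3a, Scn4a and Scn7a between -0.05 and 0.10. Without Control replicate 1, where Scn4a and Scn7a were both listed at 0, these 2 stood at -0.16 and -0.08. The median log2 change of the 7 genes was -0.05, against 0.00 over all genes.

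Scn4a and Scn3b were lower in the 5/6Nx than in the Sham kidney of PD rats. This was 2 of 6 genes tested, beside 40.1% of all genes called there, 19.9% lower. Scn4a had a median of 28.4 (24.9 to 48.8) in Sham PD and 11.4 (6.01 to 25.8) in 5/6Nx PD. It fell 2.61-fold (log2 change -0.40, SE 0.10, adjusted p = 0.00474). Scn3b had a median of 39.1 (15.9 to 48.0) in Sham PD and fell 2.36-fold (log2 change -0.35, SE 0.10, adjusted p = 0.0131), with the groups overlapping. Both rest on few reads, at most 75 in any kidney library for Scn3b and 49 for Scn4a. Both passed in each of the 13 fits with a library left out. Scn7a did not pass (log2 change 0.22, interval -0.01 to 0.45, adjusted p = 0.122), but passed without Sham PD replicate 5 (adjusted p = 0.0444) or without 5/6Nx PD replicate 6 (0.0476). Scn1a, Scn3a and Scn4b did not pass, with adjusted p of 0.957, 0.205 and 0.947.

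In Control rats 0 of 6 genes passed between 5/6Nx and Sham kidney, where 52.2% of all genes did. None had an unadjusted p under 0.05, which 58.4% of all genes had. Scn3b had a median of 46.6 (23.3 to 73.9) in Sham and 25.3 (8.88 to 68.2) in 5/6Nx, with overlap. Its log2 change was -0.31 (interval -0.63 to 0.02, adjusted p = 0.108), and limma-voom called it (adjusted p = 0.0224). Scn1a had a median of 25.0 (12.4 to 37.4) in Sham and 39.1 (20.7 to 50.7) in 5/6Nx (log2 change 0.21, interval -0.01 to 0.42, adjusted p = 0.0967). Without 5/6Nx Control replicate 7 both passed, at adjusted p of 0.0225 for Scn3b and 0.0457 for Scn1a. Scn7a (log2 change 0.04, interval -0.39 to 0.48) was listed at 0 in 5/6Nx Control replicate 1, while the other 25 kidney libraries held 16 to 90 reads, and without it the change was 0.23 (adjusted p = 0.0977).

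In the kidney, Scn2b had reads in remnant kidneys alone. It was above 0 in 4 of 7 Control and 5 of 7 PD libraries of 5/6Nx rats, at most at 12.1 and 8.37 normalized reads, and listed at 0 in all 12 Sham kidney libraries. It did not reach the minimum of 10 normalized reads in enough libraries to be tested. With no minimum it passed in limma in Control rats (adjusted p = 0.0488) and in PD rats (0.0120). The Sham values, all at 0, have no spread, and 52.2% and 40.1% of all genes passed in the main fits of these comparisons. The values above 0 stood for 4 to 18 reads.

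In the LV, 5/6Nx and Sham rats on PD differed in 4 of the 6 genes tested, 2 lower and 2 higher, beside 37.8% of all genes (19.6% lower and 18.2% higher). Scn7a and Scn3a fell, and Scn1a and Scn4b rose. Scn7a had a median of 2598 (2204 to 3980) in Sham PD and 1198 (434 to 2348) in 5/6Nx PD. Of 7 5/6Nx libraries, 6 lay below the lowest Sham library. The mean was 2.30-fold lower (log2 change -1.26, SE 0.28, adjusted p = 0.00384). Scn3a had a median of 223 (184 to 264) in Sham PD and 113 (45.2 to 225) in 5/6Nx PD, again with 6 of 7 below the lowest Sham library (1.82-fold lower, log2 change -0.60, SE 0.16, adjusted p = 0.00974). Both passed in all 13 fits with a library left out.

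Scn1a had a median of 231 (141 to 422) in LV Sham PD and 433 (278 to 720) in LV 5/6Nx PD, with 4 of 7 5/6Nx libraries above the highest Sham library. It rose 1.86-fold (log2 change 0.67, SE 0.20, adjusted p = 0.0152), but with all 4 LV groups in the fit the adjusted p was 0.0567. Scn4b had a median of 4172 (3690 to 9890) in Sham PD and 8494 (4807 to 12141) in 5/6Nx PD. It rose 1.59-fold (log2 change 0.70, SE 0.23, adjusted p = 0.0283), and the groups overlapped, with Sham PD replicate 2 at 9890 and the next Sham PD library at 5174. The Scn4b call was lost in 6 of 13 fits with a library left out, at adjusted p from 0.0521 to 0.0665 (without Sham PD replicates 1, 3, 4 or 5 or 5/6Nx PD replicates 1 or 2), and without Sham PD replicate 2 the adjusted p was 0.00178. Scn3b (log2 change 0.24, interval -0.04 to 0.51, adjusted p = 0.167) and Scn4a (0.24, interval -0.12 to 0.60, adjusted p = 0.267) did not pass. Scn8a and Scn2b were below the read minimum, and Scn2b was above 0 in only 1 of 7 5/6Nx PD libraries against 5 of 6 Sham PD libraries. With no minimum Scn2b passed as lower (log2 change -0.52, adjusted p = 0.00884).

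Markers of several cell types also differed between LV 5/6Nx PD and LV Sham PD, where 18.2% of all genes were called higher and 19.6% lower. Cardiomyocyte markers were higher for 7 of 8 genes, and their sum ran from 4179605 to 5980799 against 3000705 to 3987059. Fibroblast markers were lower for 6 of 6 tested genes (30961 to 90158 against 96810 to 131440), macrophage markers for 8 of 8 (6109 to 15237 against 22368 to 31956) and endothelial markers for 5 of 6 (51280 to 98519 against 84787 to 118017). Schwann cell markers were lower for 4 of 9, with sums of 2198 to 5310 against 3870 to 5194. In LV Sham PD against LV Sham Control, 4 of 8 macrophage markers and 5 of 6 neutrophil markers were higher, beside 1.23% of all genes called in either direction. The part of cell composition in the sodium channel differences was not tested.

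**Figure D3:**
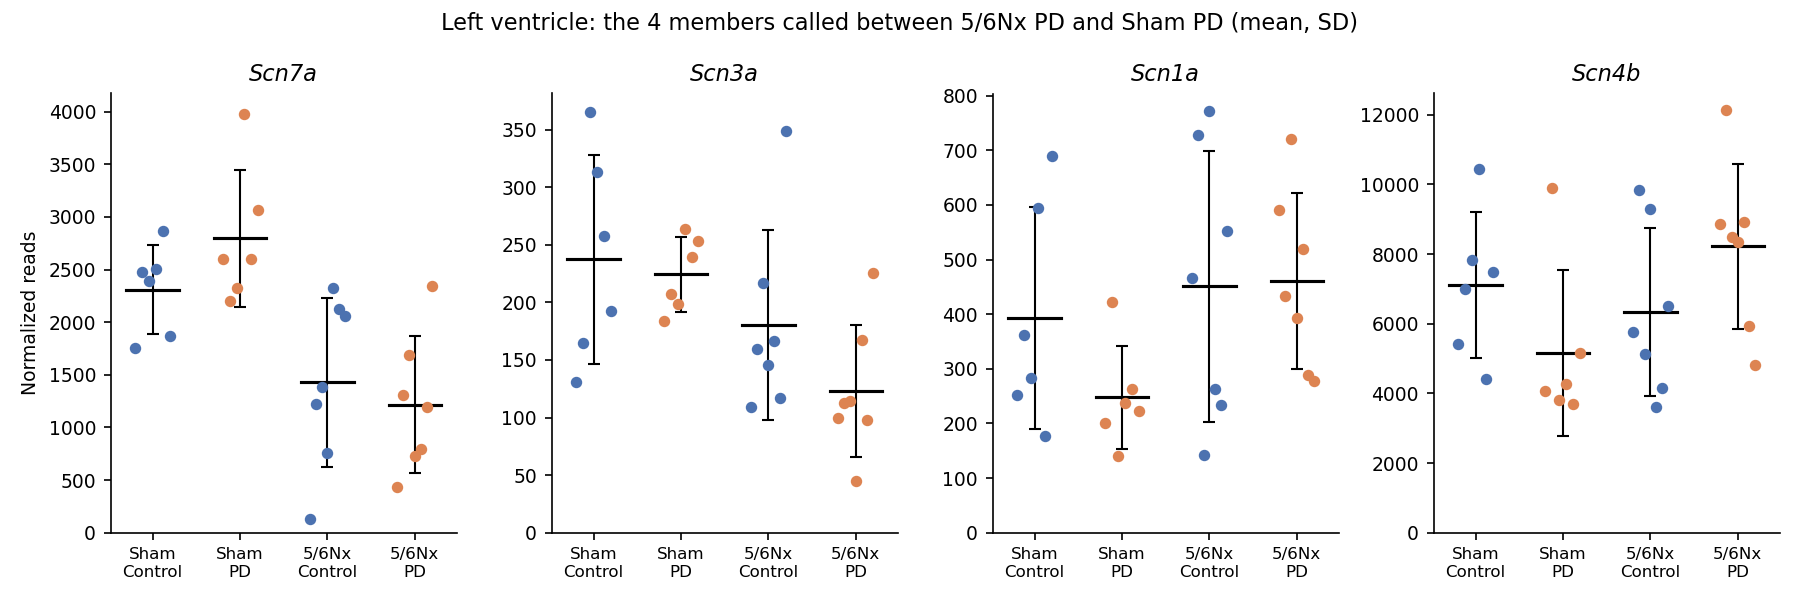
Normalized reads (vertical axis, from 0) of Scn7a, Scn3a, Scn1a and Scn4b in each LV library of the 4 groups, with mean and SD. In 5/6Nx PD, 6 of 7 libraries lie below all Sham PD libraries for Scn7a and Scn3a, and Sham PD replicate 2 stands apart at 9890 for Scn4b.

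Without dialysis no gene passed between 5/6Nx and Sham LV. Of 6 genes tested 0 passed, where 0.0697% of all genes did, and 2 had an unadjusted p under 0.05, which 17.5% of all genes had. Scn3b had a median of 129 (91.3 to 261) in Sham Control and 296 (179 to 692) in 5/6Nx Control, with 5 of 7 5/6Nx libraries above the highest Sham library. Its mean was 2.39-fold higher (log2 change 0.85, SE 0.22, interval 0.38 to 1.31), at an adjusted p of 0.109. It passed in limma-voom (adjusted p = 0.0260), with all 4 LV groups in the fit (0.0236) and without 5/6Nx Control replicate 3 (0.0376). Scn7a had a median of 2431 (1755 to 2865) in Sham Control and 1388 (126 to 2323) in 5/6Nx Control (log2 change -0.93, interval -1.85 to -0.02, adjusted p = 0.278). Without 5/6Nx Control replicate 1, which held 126, the change was -0.53. Scn1a, Scn3a, Scn4a and Scn4b had log2 changes between -0.27 and 0.12, with adjusted p of at least 0.466. The difference between the surgery changes in PD and Control rats is the interaction tested for all 8 genes, and 0 passed it.

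None of the 8 genes passed with PD in the LV. In Sham rats all 8 were tested and 0 passed, where 1.23% of all genes did. None had an unadjusted p under 0.05, which 19.5% of all genes had, and limma-voom called 0. Scn4b had a median of 7249 (4426 to 10441) in Control and 4172 (3690 to 9890) in PD (log2 change -0.50, interval -1.003 to 0.012, adjusted p = 0.266). Of the PD libraries 5 lay between 3690 and 5174, and without replicate 2 the change was -0.70 and passed (adjusted p = 0.0298). Scn1a had a median of 323 (178 to 690) in Control and 231 (141 to 422) in PD (-0.44, interval -0.96 to 0.08, adjusted p = 0.331). Scn7a stood at 0.26 (interval -0.05 to 0.57), and Scn2b, Scn3a, Scn3b, Scn4a and Scn8a lay between -0.10 and 0.17.

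In 5/6Nx rats 0 of 6 genes passed with PD in the LV and 0 in limma-voom, where 0.0896% of all genes passed, and 1 had an unadjusted p under 0.05, which 8.53% of all genes had. That gene was Scn3b, with a median of 296 (179 to 692) in Control and 171 (114 to 234) in PD. The means were 361 ± 172 and 170.0 ± 40.5 (SD, n = 7 each), a log2 change of -0.71 (SE 0.19, interval -1.11 to -0.31) with an adjusted p of 0.201. The adjusted p ranged from 0.0865 to 0.378 over the alternatives. Scn3a (-0.34, interval -0.74 to 0.06), Scn4b (0.40, interval -0.09 to 0.89) and Scn4a (0.28, interval -0.04 to 0.60) did not pass either, and Scn1a and Scn7a had intervals from -0.46 to 0.69 and -1.04 to 0.91.

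The difference between the PD change in 5/6Nx and that in Sham LV passed for 0 of 8 genes, beside 0.693% of all genes, with 0 called in limma-voom. An unadjusted p under 0.05 was found for 2 genes and for 18.2% of all genes. These 2 were Scn4b (0.90, SE 0.35, interval 0.17 to 1.62, adjusted p = 0.180) and Scn3b (-0.61, SE 0.27, interval -1.16 to -0.06, adjusted p = 0.219). The PD change in Scn4b was -0.50 in Sham and 0.40 in 5/6Nx, and that in Scn3b was -0.10 and -0.71. The comparisons of PD and of surgery share libraries, so that an unusual Sham PD or 5/6Nx Control group enters more than 1 of them.

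**Figure D4:**
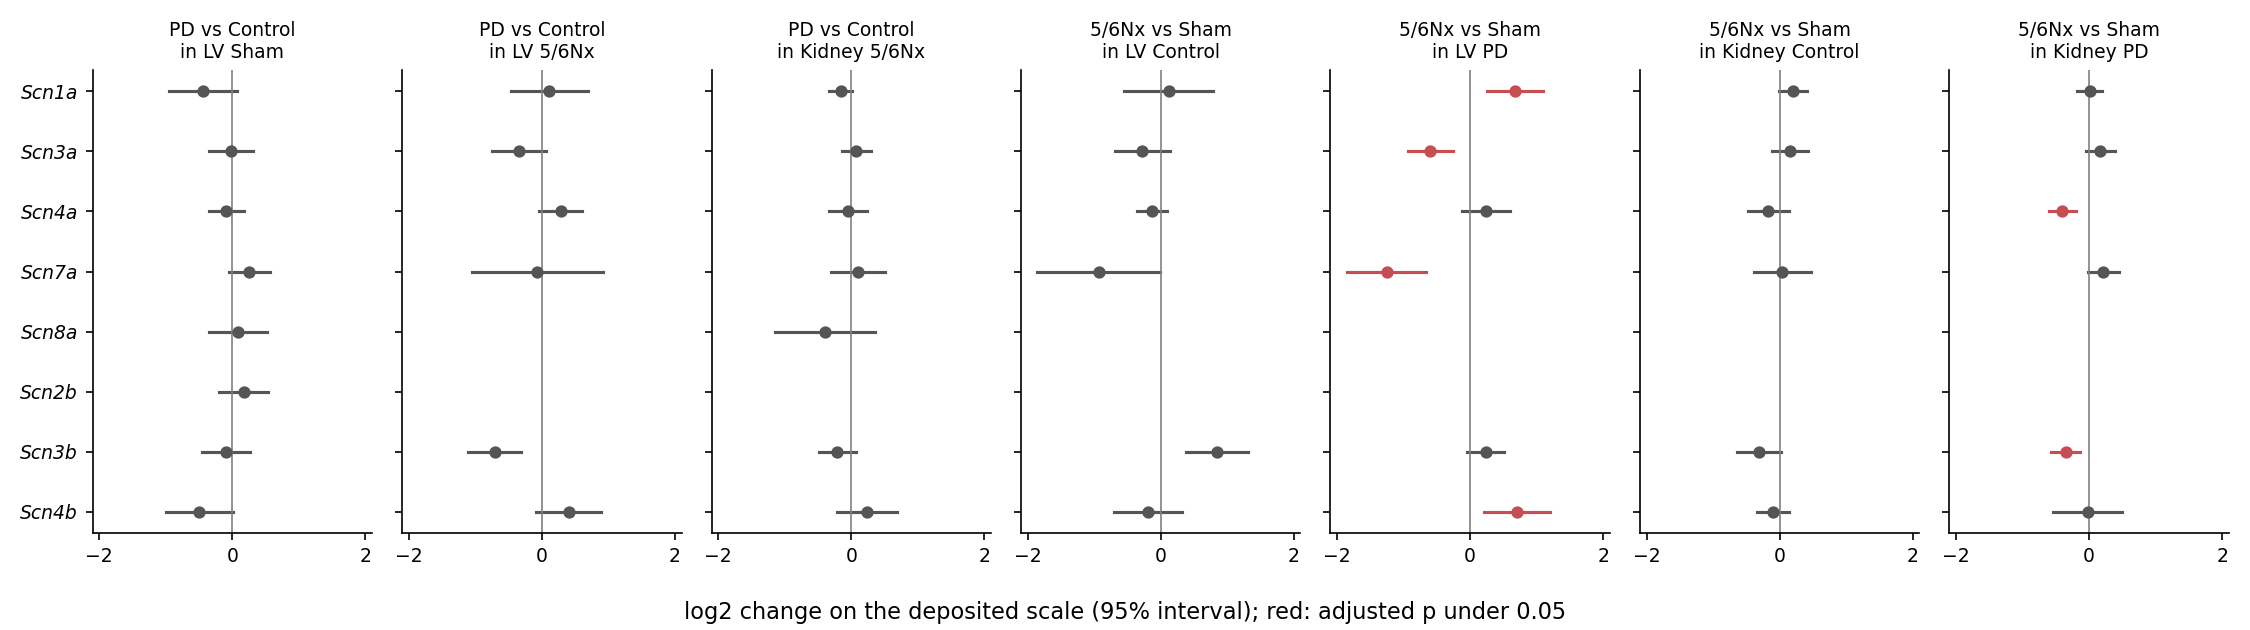
Log2 change on the deposited scale (horizontal axis) of each tested gene (vertical axis) with its 95% interval, in 3 comparisons of PD with Control and 4 of 5/6Nx with Sham. Red marks an adjusted p under 0.05, which 4 genes reach in the LV of PD rats and 2 in the kidney of PD rats. Scn8a is drawn only where it was tested, and the Sham kidney comparison of PD is left out because members are not tested there.

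Genes for proteins that bind or anchor sodium channels were counted in the same fits, with Calm2 present under 2 identifiers. Of 21 to 23 such partners tested, 0 passed with PD in any of the 4 comparisons, where 0.0121% to 1.23% of all genes passed. Those with an unadjusted p under 0.05 were 4 of 21 in the Sham kidney (17.3% of all genes), 0 of 21 in the 5/6Nx kidney (4.18%), 6 of 23 in the Sham LV (19.5%) and 1 of 22 in the 5/6Nx LV (8.53%). Between LV 5/6Nx PD and LV Sham PD, 11 of 22 were higher, beside 18.2% of all genes, and 5 lower, beside 19.6%, with a median log2 change of 0.31 against -0.03 over all genes. Fgf13, a fibroblast growth factor homologue that binds the channel's C-terminus, rose 1.94-fold (adjusted p = 0.00198), and its relative Fgf12 rose 1.59-fold (adjusted p = 0.00192). Camk2d, a kinase that phosphorylates cardiac sodium channels, rose 1.79-fold (adjusted p = 0.00540), and the spectrin Sptbn1 fell by 0.66 on the log2 scale (adjusted p = 0.0181). In LV Control rats 0 of 23 passed, beside 0.0697% of all genes, with 5 at an unadjusted p under 0.05, beside 17.5%.

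In the kidney, 5/6Nx against Sham called 5 partners higher and 5 lower of 22 in Control rats, where 52.2% of all genes were called, and 3 higher and 4 lower of 21 in PD rats, where 40.1% were. Neither kidney share of partners was above that of all genes. Sptbn4, the spectrin of the axon initial segment, was 3.77-fold higher in Control rats (adjusted p = 9.88e-05) and 2.33-fold higher in PD rats (adjusted p = 0.00303). The cell adhesion gene Nrcam was 3.16-fold higher in Control rats (adjusted p = 0.00106) and 4.84-fold higher in PD rats (adjusted p = 0.000143). Ank3, the ankyrin that anchors sodium channels at the initial segment, fell by 0.74 on the log2 scale in Control rats (adjusted p = 0.000486), and Sptbn1 fell by 0.81 in PD rats (adjusted p = 0.00156). Ank2 fell by 0.91 and 0.62 (adjusted p = 0.00378 and 0.0231). Of 4 other sodium conductance genes tested in the kidney, 1 passed in each comparison. It was Unc79, a subunit of the sodium leak channel complex, which fell by 0.63 in Control rats (adjusted p = 0.00120) and by 0.44 in PD rats (adjusted p = 0.00986).

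Over the 26 LV libraries with group means subtracted, Scn4b and Scn1a had r = 0.76 and Scn3b and Scn1a r = 0.58, while Scn3b and Scn7a had r = -0.54 and Scn7a and Scn3a r = 0.48. The other 6 pairs among these 5 genes lay between -0.30 and 0.38. The gene most like Scn7a was L1cam, a neural cell adhesion gene (r = 0.93, and 0.86 without the 2 libraries farthest from the median), followed by Fam114a1 and Adam23 (r = 0.92 each). For Fam114a1 the likeness lay in the 5/6Nx libraries (r = 0.97) and not in the Sham libraries (r = 0.20). Scn4b went with Stc2 (r = 0.92), Pcnx4 and Nhlrc1 (r = 0.91 each), and Scn1a with RGD1359108 (r = 0.95), Bmt2 (0.93) and Synpo (0.92). Scn3b was nearest to Homer2 (r = 0.82), and Scn3a to Slc7a2 (r = 0.78), Per3 (0.78) and Kcnmb1 (0.78) in the LV and to Tmem26 (r = 0.69) in the kidney. All are descriptions over genes that share the tissue piece and scaling of each library, and no test was made.

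In the RefSeq annotation of the GRCr8 assembly, used for names and neighbours only, all 8 genes were found by symbol. Scn2b and Scn4b lie next to each other with 0 genes between them, and Scn1a and Scn7a have 2 genes between them. How the strand and reads shared by related genes entered the counting is not given in the sources used here, so that sparse Scn2b reads beside abundant Scn4b in the LV carry that uncertainty.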

How the data were processed

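Polyadenylated RNA was made into stranded TruSeq libraries. Per the labels and the study's methods, the authors trimmed reads with Trim Galore and cutadapt, aligned them to rn6 with HISAT2 (version 2.1.1 in the labels), used StringTie2 for gene levels and DESeq2 for comparisons. The authors deposited log2 values of 20624 genes in 52 libraries, on a variance-stabilised scale with a shared lowest value of 5.919 for 0 reads. Tables of the authors' own fold changes and p-values were not used.

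The scale was inverted to normalized reads and whole reads (100% of values whole within 0.01). A gene was tested if the number of libraries with 10 or more normalized reads was no lower than the size of the smaller group. Tests were made on the deposited log2 values with limma 3.58.1 in R 4.3.3 (trend and robust settings), on the libraries of each comparison only, with Benjamini-Hochberg adjustment over all genes tested. An adjusted p under 0.05 passed. The fits of PD and of surgery were run on simulated data, and those between kidney and LV were not. Only genes with more reads were changed there, so the simulation does not cover Scn2b or kidney Scn4a and Scn3b. Its outcome is not used here.

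Each library was assigned from its labels, and p-values measure the spread between rats of a group. Depth of 16.7 M to 111.8 M reads limits Scn2b and LV Scn8a most. An exact 0 is written as listed at 0, because the quantifier's estimate may fail. The members and lists were chosen with earlier results of these data known. All 8 members are named in every group. Other lists are given as counts, with at most 4 genes past the threshold named by size of change, and likeness genes are the 3 with the highest r for members with a median of at least 100 normalized reads. Members were not tested in the Sham kidney, nor Scn8a where a comparison shares its libraries, because the rule used them. Alternatives were log2 of normalized reads plus 1, size factors within the comparison, no minimum, limma-voom, all 4 groups of a tissue in the fit, each library left out and, between tissues, a block by library number.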

Additional observations from a re-analysis of the deposited data

Results flagged for a closer look

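In 6 of 62 group and gene combinations examined, the highest or lowest library stood apart from the others of its group. Chance alone gives about 1 in 20. Scn4b reached 9890 normalized reads in LV Sham PD replicate 2, where the next library held 5174. Scn8a reached 31.7 in LV Sham Control replicate 4 (next 11.8). Scn3a was lowest in Kidney Sham PD replicate 4, the shallowest library, at 69.3 (next 120.04), and highest in Kidney 5/6Nx Control replicate 4 at 216.7 (next 145). Scn4b reached 34.9 in Kidney 5/6Nx Control replicate 3 (next 16.8). Scn2b was at 7.14 in LV 5/6Nx PD replicate 1, with the other 6 libraries listed at 0, where any single value above 0 stands apart.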

How the results depend on the processing

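No label ties a kidney to an LV library, but all 26 kidney libraries have 1 LV library of the same surgery and treatment whose number in the title differs by 26 (lower in the LV for 2). Over 15505 genes the deviations of these pairs from their group means had r between -0.28 and 0.40, over 0.1 for 16 of 26, and 14 kidney libraries were nearest to their own pair. A replicate block by these pairs, added after the data were seen, kept 6 calls between kidney and LV in 5/6Nx Control and 6 in Sham Control. PD and surgery were compared between different rats, with no pairs. No result among those recomputed changed direction past the threshold. Over all genes, PD against Control in the Sham kidney called 23, and 11 with no minimum, 171 in limma-voom, 9 with all 4 groups in the fit, and 5 to 152 with a library left out (152 without PD replicate 4, 5 without PD replicate 5). Of the members between 5/6Nx and Sham in Kidney Control, 0 passed, 1 with no minimum, 1 in limma-voom and 0 to 2 with a library left out. In LV Control 0 passed, 1 in limma-voom, 1 with all 4 groups in the fit and 0 to 1 with a library left out. In LV PD 4 passed, and 3 to 4 with a library left out. In Kidney PD 2 passed, and 2 to 3 with a library left out. In LV Sham 0 passed with PD, and 0 to 1 with a library left out. Of single values tested in the main fits, under settings that kept all libraries, 331 kept their side of the threshold, 3 gained a call and 1 lost it. With a library left out 956 kept it, 6 gained and 6 lost a call. These counts leave out Scn2b where it was below the read minimum. With no minimum it passed in limma between 5/6Nx and Sham in Kidney Control (adjusted p = 0.0488), Kidney PD (0.0120) and LV PD (0.00884). It also passed as lower in the kidney than in the LV of Sham Control rats (0.00943). Scn8a in the Sham kidney ranged from -1.20 to -1.04 on the log2 scale over settings with all libraries. The 4 to 18 reads of Scn2b in the kidney and 3 to 40 of Scn8a in the LV limit what can be shown there. The cause of these shifts was not tested.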
